A study of Mus musculus with 12 samples.

Results

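Of the 23420 genes counted in whole mouse embryos of the *Carm1* and *Pax3* lines, 9 are described here, namely 8 ion channel genes of sensory neurons and *Pirt*, a regulator of channels of the TRP family. They are the voltage-gated sodium channel genes *Scn9a*, *Scn10a* and *Scn11a*, the TRP channel genes *Trpv1* and *Trpm8*, the ATP receptor gene *P2rx3*, the mechanosensitive channel gene *Piezo2*, the acid-sensing channel gene *Asic3*, and *Pirt*. All 9 symbols were found in both tables of counts. *Scn10a* and *Pirt* were chosen by their fold changes between null and wild-type embryos, both of them being lower in the mutants, so their values are given as a description and without a test. The other 7 were taken as related channels, and 5 of them had enough reads to be tested.

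RNA was sequenced from single embryos at E12.5, with 1 polyadenylated RNA library per embryo and 3 embryos in each of 4 groups. Within the *Carm1* line (strain given as C57BL/6), embryos homozygous for the null allele *Carm1*tm1Mtb were compared with wild-type embryos. *Carm1* encodes an arginine methyltransferase that acts as a transcriptional coactivator. Within the *Pax3* line (strain given as mixed), embryos homozygous for the splotch allele *Pax3*Sp2H were compared with wild-type embryos. *Pax3* encodes a transcription factor of the dorsal neural tube, neural crest and somites, and splotch embryos serve as a model of neural crest defects. All embryos came from intercrosses of heterozygous parents. Both alleles are present in every cell of the embryo, and each value averages the whole body, in which sensory ganglia are a small share.

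Neurons that detect pain, temperature, itch, touch and muscle stretch lie in the dorsal root and cranial ganglia, and those of the trunk derive from the neural crest. Their endings carry channels that open to heat (*Trpv1*), cold (*Trpm8*), ATP (*P2rx3*), acid (*Asic3*) and mechanical force (*Piezo2*), and the resulting depolarization is turned into action potentials by sodium channels. *Scn9a* (Nav1.7) amplifies small depolarizations in sensory and sympathetic neurons, *Scn10a* (Nav1.8) carries most of the upstroke in nociceptors, and *Scn11a* (Nav1.9) sets their resting excitability. PIRT is a small membrane protein of peripheral sensory neurons that binds phosphoinositides and enhances the activity of TRPV1 and TRPM8.

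The 3 sodium channels are set apart by the toxin tetrodotoxin, which blocks the product of *Scn9a* but not, at the same doses, those of *Scn10a* and *Scn11a*. The stretch of coding sequence around the residue in the pore loop of the first channel domain that decides this is shown here for that reason, read 5′ to 3′ on the sense strand from GENCODE transcripts of GRCm38 (mm10), with the codon of that residue in capitals.

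*Scn9a*: atgactcaggacTACtgggagaacctt

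*Scn10a*: atgacgcaggacTCCtgggaacggctg

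*Scn11a*: atgactcaagacTCCtgggagaagctt

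The capitals read TAC (tyrosine, codon 362) in *Scn9a* and TCC (serine) in both *Scn10a* (codon 356) and *Scn11a* (codon 358). Each stretch of 27 nt lies in coding exon sequence, in exon 9 of 27 (*Scn9a*, chr2:66548989-66549015, minus strand), of 28 (*Scn10a*, chr9:119666375-119666401, minus strand) and of 27 (*Scn11a*, chr9:119805668-119805694, minus strand). *Scn10a* and *Scn11a* are neighbours on chromosome 9, with 34.4 kb between them, and *Scn10a* is 98.0 Mb away from *Carm1* on the same chromosome. Over the coding bases that could be aligned, 5618, 5135 and 5126 nt for the 3 pairs, identity was 67.8% between *Scn9a* and *Scn10a*, 66.8% between *Scn9a* and *Scn11a* and 68.5% between *Scn10a* and *Scn11a*. The longest run of identical bases that any 2 of these 3 share was 26 nt, while *Scn9a* and *Scn3a* share a run of 184 nt. How reads that fit several paralogs were counted is not given in the sources used here.

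The other genes lie on chromosome 2 (*P2rx3*, 84998583 to 85037462), chromosome 11 (*Pirt*, 66911981 to 66929876, and *Trpv1*, 73234292 to 73261242), chromosome 18 (*Piezo2*, 63010213 to 63387183), chromosome 5 (*Asic3*, 24413392 to 24417835) and chromosome 1 (*Trpm8*, 88277661 to 88389293) of GRCm38. Whether the counting used strand is not given in the sources used here. *P2rx3* shares 51 nt of exon with *Ssrp1* on the other strand, a far more abundant gene whose log2 fold change was 0.04 in the *Carm1* line and -0.05 in the *Pax3* line (adjusted *P* = 0.614 and 0.581 from edgeR). *Scn9a* shares 180 nt with the antisense gene *Gm13629*, which had 0 to 2 counts per library.

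Total counts per library lay between 17183344 and 23518692. *Carm1* fell from 144 ± 6.99 CPM in the wild type to 72.3 ± 3.55 CPM in *Carm1* null embryos (SD, n = 3 each, log2 fold change -0.998, adjusted *P* = 1.23e-15 from edgeR), and the reads that remain are counted on all exons, including those outside the deleted exons 2 and 3. *Pax3* fell from 28.1 ± 3.0 CPM in the wild type to 20.8 ± 2.40 CPM in *Pax3* null embryos (SD, n = 3 each, log2 fold change -0.43, adjusted *P* = 0.00142 from edgeR). In *Carm1* null embryos *Pax3* was higher than in wild type (29.03 against 22.35 CPM, log2 fold change 0.37, adjusted *P* = 0.00102 from edgeR). *Carm1* had no call in *Pax3* null embryos (-0.07, adjusted *P* = 0.376 from edgeR). CPM is the count relative to the library size after scaling by the TMM method. Libraries with at least 100 counts on Y-linked genes were unevenly spread, with 1 wild-type library of 6 in the *Carm1* line, and 2 wild-type libraries and 1 null library in the *Pax3* line. The labels name no sequencing date or other batch.

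Wild-type embryos held transcripts of these genes at widely differing levels when counts were scaled to the length of a gene's exons as well as library size (TPM). *P2rx3*, the subunit that forms ATP-gated channels of nociceptors and taste afferents, was highest, with 27.9 ± 3.25 TPM in wild-type embryos of the *Carm1* line and 20.2 ± 1.33 TPM in those of the *Pax3* line (SD, n = 3 each). *Piezo2* followed with 18.5 ± 1.33 and 13.3 ± 1.71 TPM. *Scn9a* had 8.23 ± 0.593 and 8.10 ± 1.60 TPM, and *Pirt* had 8.2 ± 0.539 and 6.85 ± 0.631 TPM. The libraries of *Scn9a* and *Pirt* overlapped in both lines, so these neighbours in the order did not differ beyond their spread on this scale. That depends on the length used. The exons of *Scn9a* cover 12772 nt and its longest transcript 9840 nt, against 4200 nt by either measure for *Pirt*. Scaling to the longest transcript would thus raise *Scn9a* relative to *Pirt*, and the overlap on that scale is not given here. *Asic3* came next with 4.55 ± 0.269 and 2.63 ± 0.237 TPM, and *Scn10a* had 3.05 ± 0.269 and 1.76 ± 0.443 TPM.

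The lowest levels were those of *Scn11a*, *Trpv1* and *Trpm8*. *Scn11a* had 0.501 ± 0.136 TPM in wild-type embryos of the *Carm1* line and 0.714 ± 0.191 TPM in those of the *Pax3* line. *Trpv1* had 0.506 ± 0.367 TPM in the first line, where its libraries overlapped those of *Scn11a*, and 0.104 ± 0.0391 TPM in the second, where they did not. *Trpm8* had 0.0597 ± 0.0372 TPM in the *Carm1* line and no read in wild-type embryos of the *Pax3* line. At E12.5 the heat receptor had at most 14 reads and the cold receptor at most 2 in any library, and the ATP receptor and *Piezo2* at the highest levels of the 9 genes.

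**Figure D1:**
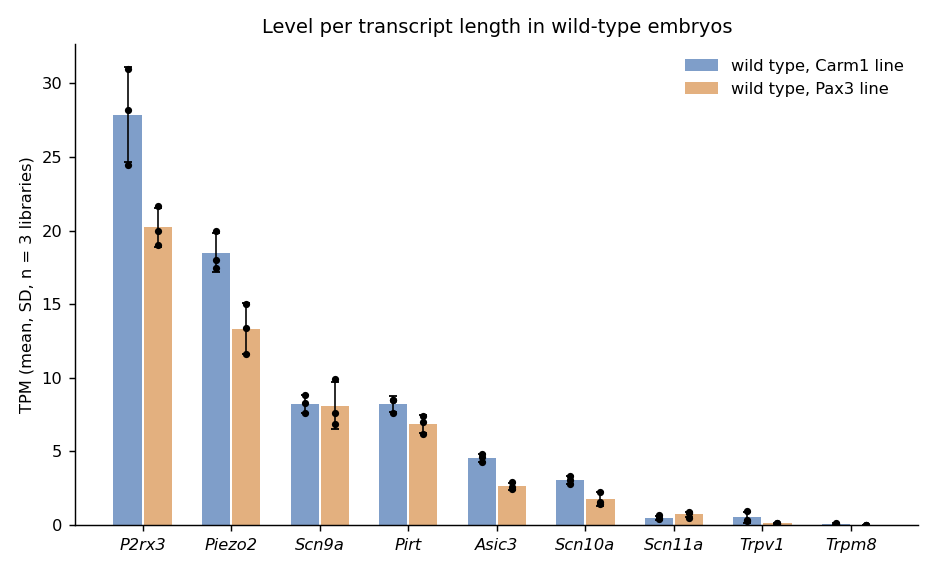
Level of each gene per length of its exons (TPM, linear axis from 0) in wild-type embryos of the *Carm1* line (blue) and the *Pax3* line (orange). Bars are means, error bars SD and points the 3 libraries of each group. *P2rx3* and *Piezo2* stand highest in both lines, *Scn9a* and *Pirt* overlap on this scale, and *Scn11a*, *Trpv1* and *Trpm8* stay below 1 TPM.

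Loss of *Carm1* and loss of *Pax3* were each compared with wild type to see which of these genes move with either mutation. *Pirt* and *Scn10a*, the genes chosen for their fall, stood at 58.9% and 79.2% of wild type in *Carm1* null embryos and at 36.9% and 24.3% in *Pax3* null embryos. Of the 5 other genes tested, *Scn9a*, *P2rx3* and *Piezo2* fell in *Carm1* null embryos, and *Scn9a* and *P2rx3* fell in *Pax3* null embryos. None rose in either line. That is 3 of 5 lower in the *Carm1* line, where 7.83% of the 15811 genes tested were lower and 5.49% higher, and 2 of 5 lower in the *Pax3* line, where 10.5% of 15724 were lower and 14% higher. In bulk RNA of whole embryos, fewer cells of a type and less RNA of a gene per cell cannot be told apart.

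These calls come from edgeR's quasi-likelihood test on the raw counts, fitted in each line over all genes kept by its filter on low counts, with *P* values adjusted by the Benjamini-Hochberg method and a threshold of 0.05. Of the 9 genes, 7 passed that filter in both lines, and *Trpv1* and *Trpm8* did not. In the *Carm1* line 2106 genes passed the threshold, 1238 lower and 868 higher. With offsets for GC content and transcript length the split turned to 1338 lower and 1686 higher, and *Scn9a*, *P2rx3* and *Piezo2* stayed among the lower genes.

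Among the sodium channels, *Scn10a* had 5.99, 6.58 and 5.66 CPM in the 3 wild-type embryos of the *Carm1* line and 5.60, 4.93 and 3.89 CPM in the *Carm1* null embryos. It had 4.39, 3.19 and 2.88 CPM in wild-type embryos of the *Pax3* line and 0.760, 1.32 and 0.467 CPM in *Pax3* null embryos. The null libraries lay below the wild-type libraries in both lines, by a narrow margin in the *Carm1* line (5.60 against 5.66 CPM) and by a wide one in the *Pax3* line. The log2 fold change was -0.34 (standard error 0.158) in the *Carm1* line and -2.04 (0.287) in the *Pax3* line. The *Pax3* null libraries held 17, 29 and 11 reads of *Scn10a*, 57 in all, against 212 in wild type, sums of raw reads that are not scaled to library size. With 1 library left out the log2 fold change lay between -0.46 (without *Carm1* null replicate 1) and -0.21 (without *Carm1* null replicate 3) in the *Carm1* line, and between -2.50 (without *Pax3* null replicate 2) and -1.74 (without *Pax3* null replicate 3) in the *Pax3* line.

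*Scn9a*, the other nociceptor sodium channel with a clear level at this age, had 25.8, 28.1 and 25.0 CPM in wild-type embryos of the *Carm1* line and 20.1, 22.6 and 22.6 CPM in *Carm1* null embryos. The *Pax3* line held 30.7, 24.6 and 21.9 CPM of it in wild-type and 15.6, 15.8 and 14.5 CPM in *Pax3* null embryos. The groups did not overlap in either line, and the wild-type embryos of the *Pax3* line varied most. *Scn9a* fell by 0.27 on the log2 scale in *Carm1* null embryos (standard error 0.0794, adjusted *P* = 0.0173 from edgeR) and by 0.75 in *Pax3* null embryos (0.104, adjusted *P* = 9.18e-06). The fall in the *Carm1* line lost its call without *Carm1* null replicate 1 (log2 fold change -0.22, adjusted *P* = 0.133 from edgeR) and without wild-type replicate 2 (-0.22, 0.142), in DESeq2 (-0.27, 0.0665), and in 1 fit of all 12 libraries (-0.27, 0.0764).

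*Scn11a*, next to *Scn10a* on chromosome 9, was covered by few reads. It had 9, 17 and 20 reads in wild-type and 21, 26 and 16 in null embryos of the *Carm1* line, and 23, 13 and 30 in wild-type and 33, 29 and 19 in null embryos of the *Pax3* line. The groups overlapped in both lines. The log2 fold change was 0.65 in the *Carm1* line (95% interval -0.08 to 1.37, adjusted *P* = 0.254 from edgeR) and 0.15 in the *Pax3* line (-0.50 to 0.81, adjusted *P* = 0.769). At this depth, changes within these intervals could not be told apart.

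*Pirt* had 7.77, 8.94 and 9.17 CPM in wild-type embryos of the *Carm1* line and 4.12, 5.43 and 5.77 CPM in *Carm1* null embryos. In the *Pax3* line it had 7.17, 7.88 and 6.49 CPM in wild-type embryos and 2.68, 2.37 and 2.84 CPM in *Pax3* null embryos. The null libraries stood clear of the wild-type libraries in both lines, and *Pirt* varied less among *Pax3* null embryos (coefficient of variation 9.19%) than *Scn10a* did (51.1%). These values rest on 60, 52 and 67 reads of *Pirt* and 17, 29 and 11 of *Scn10a*. Counting error weighs more at fewer reads, and its part in the gap was not tested. The log2 fold change was -0.76 (standard error 0.144) in the *Carm1* line and -1.44 (0.160) in the *Pax3* line. Over the alternatives in processing it stayed between -0.86 and -0.63 in the *Carm1* line and between -1.51 and -1.37 in the *Pax3* line.

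The TRP channels that PIRT acts on were hardly seen. *Trpv1*, the capsaicin and heat receptor, had 14, 5 and 7 reads in wild-type and 4, 8 and 3 in null embryos of the *Carm1* line. Wild-type embryos of the *Pax3* line held 2, 1 and 3 reads of it and null embryos 1, 0 and 3. *Trpm8*, the menthol and cold receptor, had 2, 1 and 1 reads in wild-type and 0, 2 and 0 in null embryos of the *Carm1* line, and 0 in the 6 libraries of the *Pax3* line. A count of 0 allows a level of up to 3 reads, or 0.127 to 0.178 CPM depending on the library, and the groups of both genes overlapped within each line. No fold change is given for either gene.

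*P2rx3* had 16.7, 21.6 and 20.2 CPM in wild-type and 16.02, 13.0 and 15.6 CPM in null embryos of the *Carm1* line. Its values for the *Pax3* line were 13.6, 15.4 and 13.3 CPM in wild-type and 8.23, 8.65 and 9.72 CPM in null embryos. The groups did not overlap in either line. *P2rx3* fell by 0.40 on the log2 scale in *Carm1* null embryos (standard error 0.0997, adjusted *P* = 0.00597 from edgeR) and by 0.66 in *Pax3* null embryos (0.110, adjusted *P* = 6.99e-05). The call in the *Carm1* line was lost without *Carm1* null replicate 2 (log2 fold change -0.31, adjusted *P* = 0.0820 from edgeR) and without wild-type replicate 2 (-0.31, 0.0840).

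*Piezo2*, the channel of light touch and proprioception, had 83.8, 77.3 and 77.0 CPM in wild-type and 61.2, 66.3 and 69.5 CPM in null embryos of the *Carm1* line, and these groups did not overlap. Levels of 62.8, 58.4 and 50 CPM in wild-type and 55.1, 66.3 and 63.5 CPM in null embryos of the *Pax3* line did overlap. *Piezo2* fell by 0.27 on the log2 scale in *Carm1* null embryos (standard error 0.0545, adjusted *P* = 6.60e-04 from edgeR). In *Pax3* null embryos its log2 fold change was 0.11 (95% interval -0.05 to 0.28, adjusted *P* = 0.331), and with offsets for GC content and transcript length it was called higher (0.21, adjusted *P* = 0.0237 from edgeR). Of the 5 genes tested, it was the one with a call in 1 line and no call in the other, a difference that is tested after the single genes.

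*Asic3*, an acid sensor of muscle and skin afferents, had 2.73, 2.58 and 2.97 CPM in wild-type and 3.02, 3.31 and 2.18 CPM in null embryos of the *Carm1* line. The libraries of the *Pax3* line had 1.71, 1.51 and 1.55 CPM in wild-type and 2.15, 1.41 and 1.53 CPM in null embryos. The groups overlapped in both lines. The log2 fold change was 0.04 in the *Carm1* line (95% interval -0.40 to 0.48, adjusted *P* = 0.929 from edgeR) and 0.09 in the *Pax3* line (-0.44 to 0.62, adjusted *P* = 0.833). Both intervals leave out a fall as large as that of *Scn9a* or *P2rx3* in *Pax3* null embryos. The interval of the *Carm1* line includes falls as large as those of *Scn9a* and *Piezo2* in that line (-0.27 each). It ends close to that of *P2rx3* there (-0.40).

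**Figure D2:**
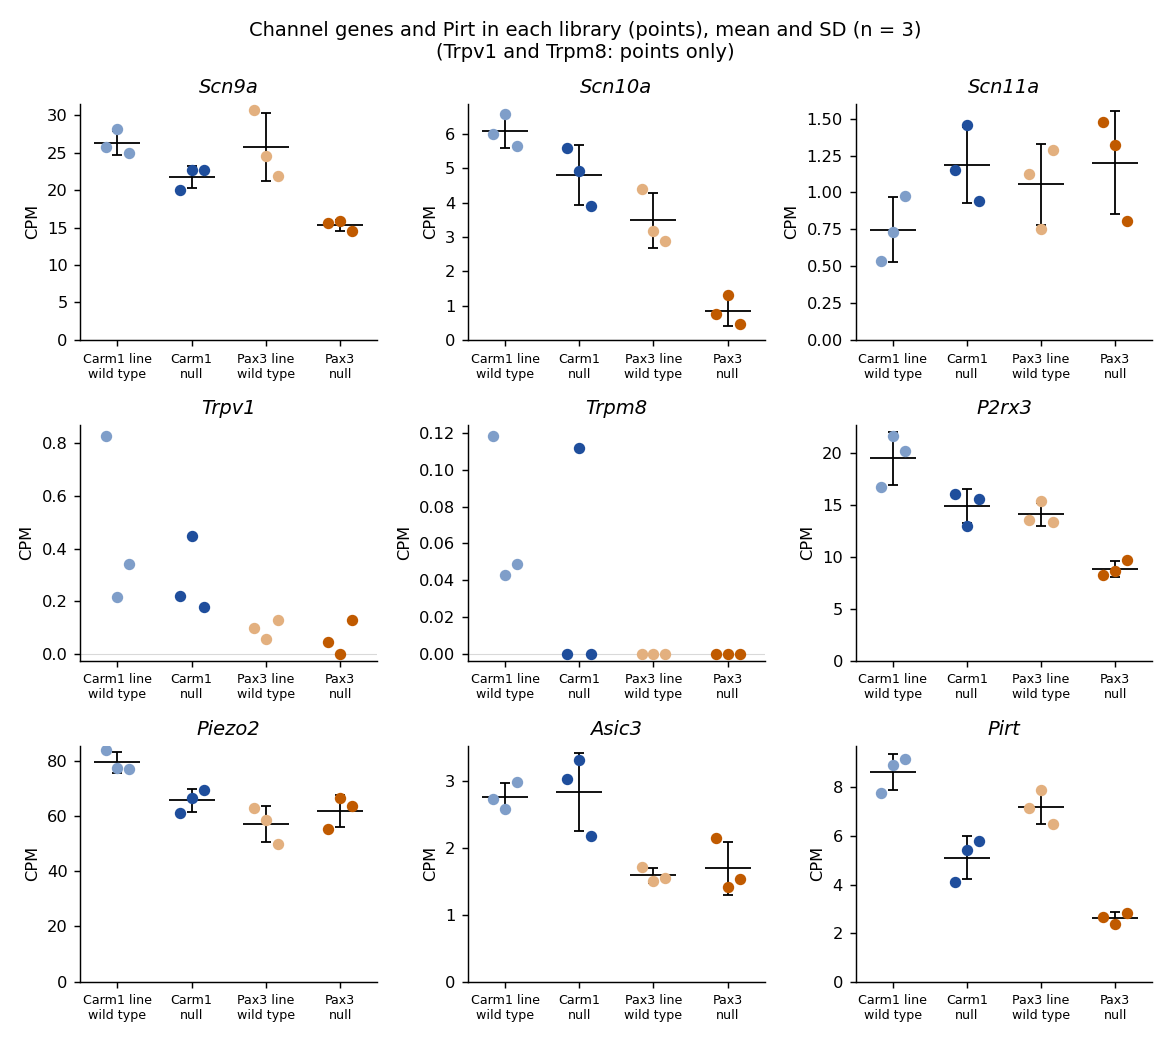
CPM of each gene in each library (points, linear axes with a range of their own) in the 4 groups, with mean and SD (n = 3) as lines, except for *Trpv1* and *Trpm8*, which had at most 14 reads in any library. *Scn9a*, *Scn10a*, *P2rx3* and *Pirt* are lower in every null library than in the wild-type libraries of the same line, *Piezo2* only in the *Carm1* line, and the groups of the other 4 genes overlap.

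Counted by library rather than by test, the null libraries lay below the wild-type libraries for *Scn9a*, *P2rx3* and *Piezo2* among the 5 genes tested in the *Carm1* line, where this held for 15.7% of all genes tested and the opposite for 14.2%. In the *Pax3* line it held for *Scn9a* and *P2rx3*, against 18.9% of all genes tested, with the opposite in 20.7%. In the *Carm1* line 1 library had Y-linked counts, wild-type replicate 3, so that a term for such libraries amounts to leaving it out. Without it the log2 fold changes were -0.31 for *Scn9a*, -0.38 for *P2rx3* and -0.29 for *Piezo2* (adjusted *P* = 0.00968, 0.0132 and 1.63e-04 from edgeR). In the *Pax3* line, where both genotypes had such libraries, the fit with the term gave -0.83 for *Scn9a* and -0.62 for *P2rx3*, with calls for both.

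Since a call in 1 line and not in the other does not show a difference, the mutant effects were also compared in 1 fit of all 12 libraries, as the log2 fold change in the *Carm1* line minus that in the *Pax3* line. *Scn9a* fell less in *Carm1* null than in *Pax3* null embryos, by a difference of 0.49 (95% interval 0.20 to 0.77, adjusted *P* = 0.0134 from edgeR). *Piezo2* differed the other way, by -0.38 (-0.59 to -0.16, adjusted *P* = 0.0140). These 2 of 5 genes stand beside 8.65% of 16292 genes with a positive difference called and 10.5% with a negative one. The difference of *P2rx3* was 0.28 (-0.04 to 0.59, adjusted *P* = 0.219 from edgeR), that of *Scn11a* 0.50 (-0.48 to 1.48, 0.516) and that of *Asic3* -0.04 (-0.70 to 0.63, 0.955). The call of *Scn9a* was lost without *Pax3* wild-type replicate 1, its highest library (0.33, adjusted *P* = 0.0691 from edgeR), and that of *Piezo2* without *Carm1* null replicate 1 (-0.32, adjusted *P* = 0.0503). As a description, the difference was 0.69 for *Pirt* and 1.71 for *Scn10a*, both of which had the larger decrease in *Pax3* null embryos.

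**Figure D3:**
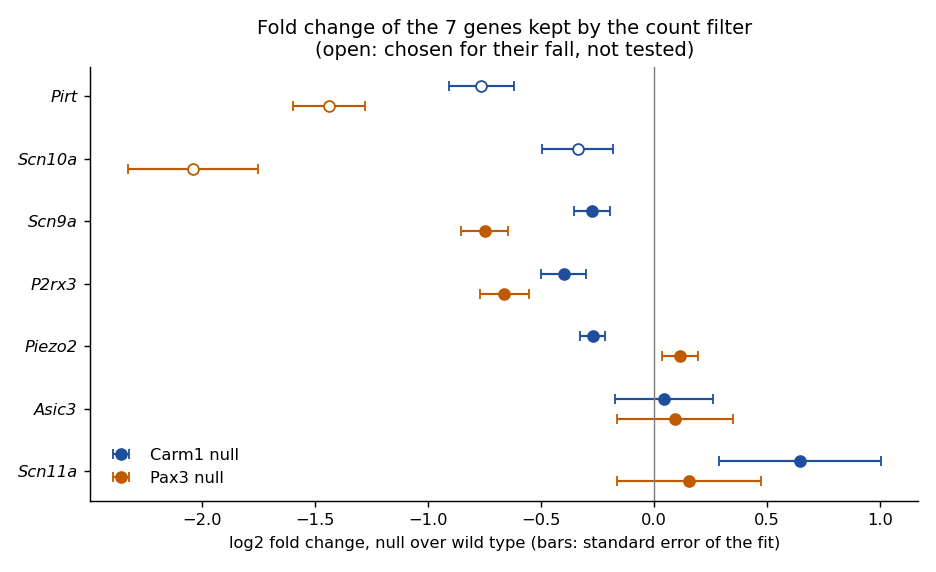
Log2 fold change of null over wild-type embryos for the 7 genes kept by the filter on low counts, in the *Carm1* line (blue) and the *Pax3* line (orange). Bars show 1 standard error of the fit, and open symbols mark *Pirt* and *Scn10a*, which were chosen for their fall. *Scn10a* in the *Pax3* line lies farthest from 0 (-2.04), and *Piezo2* is the gene whose values lie on opposite sides of 0 (-0.27 and 0.11).

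The wild-type embryos of the lines differed from each other as well. In the same fit, 3 of the 5 genes tested were lower in wild-type embryos of the *Pax3* line than in those of the *Carm1* line, a direction that 23.1% of the 16292 genes tested took (3756 lower and 3362 higher, or 2982 and 5018 with offsets for GC content and transcript length). *P2rx3* was lower by a log2 difference of -0.51 (standard error 0.105, adjusted *P* = 1.93e-04 from edgeR), *Piezo2* by -0.51 (0.0748, 6.10e-06) and *Asic3* by -0.83 (0.233, 0.00445). *Scn9a* had a difference of -0.07 (95% interval -0.27 to 0.13, adjusted *P* = 0.590 from edgeR) and *Scn11a* one of 0.46 (-0.26 to 1.19, adjusted *P* = 0.299). *Scn10a* and *Pirt* had differences of -0.84 and -0.31. Line, strain background and any separate handling of the lines cannot be told apart.

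Related genes were read from lists of other channels and of neural cell types. Among 11 other sodium channel subunits, all tested, 3 were lower and 0 higher in *Carm1* null embryos, against 7.83% of all genes lower and 5.49% higher, with a median log2 fold change of -0.17 against 0.00136 over all genes tested. These were *Scn1a* (-0.48), *Scn3b* (-0.33), an auxiliary subunit, and *Scn3a* (-0.17), with adjusted *P* between 0.00113 and 0.0476 from edgeR. In *Pax3* null embryos 2 were lower and 0 higher, against 10.5% and 14% of all genes, namely *Scn4a* (-1.61), the channel of skeletal muscle, and *Scn7a* (-1.06), a sodium-sensing channel of glia and neurons, with adjusted *P* of 0.00600 and 4.18e-04 from edgeR, and the median was -0.08 against -0.00255.

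Of 30 other TRP, P2X, ASIC and Piezo channel genes, 27 were tested in the *Carm1* line and 26 in the *Pax3* line. In *Carm1* null embryos *Trpm5* (-0.69), a channel of taste signalling, and *Trpm3* (-0.35), a heat-sensitive channel, were lower and *Trpm6* (0.88), a magnesium channel, was higher. In *Pax3* null embryos 0 were lower and *Asic4* (0.65) and *Trpm4* (0.42) were higher. These counts are near or under the shares of all genes called, which were 7.83% lower and 5.49% higher in the *Carm1* line, and 10.5% lower and 14% higher in the *Pax3* line. The other 24 genes tested in each line had no call, and the medians were -0.06 and -0.00409. Adjusted *P* for these 5 genes lay between 6.79e-06 and 0.0470 (edgeR).

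Among 28 sensory neuron identity genes, of which 27 were tested, 6 were lower and 2 higher in *Carm1* null embryos, and 13 were lower and 1 higher in *Pax3* null embryos. In *Carm1* null embryos *Avil*, a marker of sensory ganglia, fell by 0.76 on the log2 scale and *Runx1*, a regulator of nociceptor subtypes, fell by 0.40, while the proneural genes *Neurod4* (0.71) and *Neurog1* (0.53) were higher. In *Pax3* null embryos *Drgx* (-1.12) and *Prdm12* (-0.97), transcription factors of nociceptors, were lower and the proneural gene *Neurog2* (0.25) was higher. The median was -0.04 in the *Carm1* line and -0.23 in the *Pax3* line, beside 0.00136 and -0.00255 over all genes tested, of which 7.83% and 10.5% were lower and 5.49% and 14% higher. *Mrgprd*, a receptor of later nonpeptidergic nociceptors, was not tested and was at 0 in each library of the *Carm1* line. The summed level of the list was 579.5 to 597.8 CPM in *Carm1* null and 597.9 to 631 CPM in wild-type embryos, and 526 to 529 CPM in *Pax3* null and 608 to 622 CPM in wild-type embryos, so the groups did not overlap in either line.

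Markers of neurons at large and of other neural cell types are given beside that result. The shares of all genes tested to set beside each count are 7.83% lower and 5.49% higher in the *Carm1* line, and 10.5% lower and 14% higher in the *Pax3* line. Of 16 pan-neuronal genes, 7 were lower and 0 higher in *Carm1* null embryos, and 6 were lower and 2 higher in *Pax3* null embryos, the last being near the share of all genes. *Stmn2* (-0.26), *Syt1* (-0.25) and *Dcx* (-0.25) were the most lowered in the first, and *Nefl* (-0.34), *Elavl4* (-0.30) and *Dcx* (-0.26) in the second, where *Stmn3* (0.36) and *Syp* (0.24) were higher. The summed pan-neuronal level was 2516 to 2570 CPM in *Carm1* null against 2731 to 2908 CPM in wild-type embryos, and 2457 to 2621 CPM in *Pax3* null against 2691 to 2900 CPM. Medians were -0.16 and -0.11.

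The next counts, of central and sympathetic neuron genes, are small and stand beside shares over all genes of 7.83% lower and 5.49% higher (*Carm1* line) and 10.5% lower and 14% higher (*Pax3* line), to which several are close. Of 12 central neuron genes, 2 were lower (*Gad1*, -0.34, and *Gad2*, -0.21, enzymes of GABA synthesis) and *Evx1* (0.83) higher in *Carm1* null embryos, whereas in *Pax3* null embryos 0 were lower and *Evx1* (0.47) and *Slc32a1* (0.44) higher. Their summed level was 180.1 to 183.4 CPM in *Carm1* null against 182.6 to 199 CPM in wild-type embryos, and 217 to 228 CPM in *Pax3* null against 196 to 208 CPM. Sympathetic neurons, which also derive from the neural crest, were followed by 14 genes. *Npy* (-0.60) was lower and *Gata2* (0.27) higher in *Carm1* null embryos, and in *Pax3* null embryos *Dbh* (-2.39), an enzyme of noradrenaline synthesis, and *Chrna3* (-0.37) were lower and *Hand2* (0.39), *Insm1* (0.35) and *Gata2* (0.28) higher. The summed sympathetic level was 230 to 236 CPM in *Carm1* null against 223.7 to 227 CPM in wild-type embryos, and 251 to 267 CPM in *Pax3* null against 224 to 235 CPM in wild-type embryos. This sum leans on the abundant genes and does not give the direction of the others. In wild-type embryos of the *Pax3* line *Hand2*, *Insm1* and *Gata2* had means of 41.1, 46.4 and 25.2 CPM. *Dbh* and *Chrna3*, which were called lower, had 2.55 and 13.8 CPM there.

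Of 9 peripheral glia genes, 0 were lower and *Fabp7* (0.37) was higher in *Carm1* null embryos, while in *Pax3* null embryos 4 were lower, among them *Cdh19* (-1.15), *Sox10* (-0.89), the regulator of neural crest and glia, and *Erbb3* (-0.59), a neuregulin receptor, and *Fabp7* (0.20) was higher. Over all genes 7.83% were lower and 5.49% higher in the *Carm1* line, and 10.5% and 14% in the *Pax3* line. The summed level was 296 to 313 CPM against 264 to 291 CPM in the *Carm1* line and 231 to 252 CPM against 249.7 to 269 CPM in the *Pax3* line. *Fabp7* weighs most in these sums, as the gene with the highest level of the 9. Its mean was 163.5 CPM in *Carm1* null against 126.5 CPM in wild-type embryos, and 145.9 CPM in *Pax3* null against 126.7 CPM. The sums thus do not give the direction of the other genes. Median log2 fold changes were -0.16 and 0.20 for the central neuron genes, -0.01 and -0.07 for the sympathetic genes and 0.02 and -0.40 for the glia genes in the *Carm1* and *Pax3* lines. The part of these cell types in the fall of the channel genes was not tested.

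**Figure D4:**
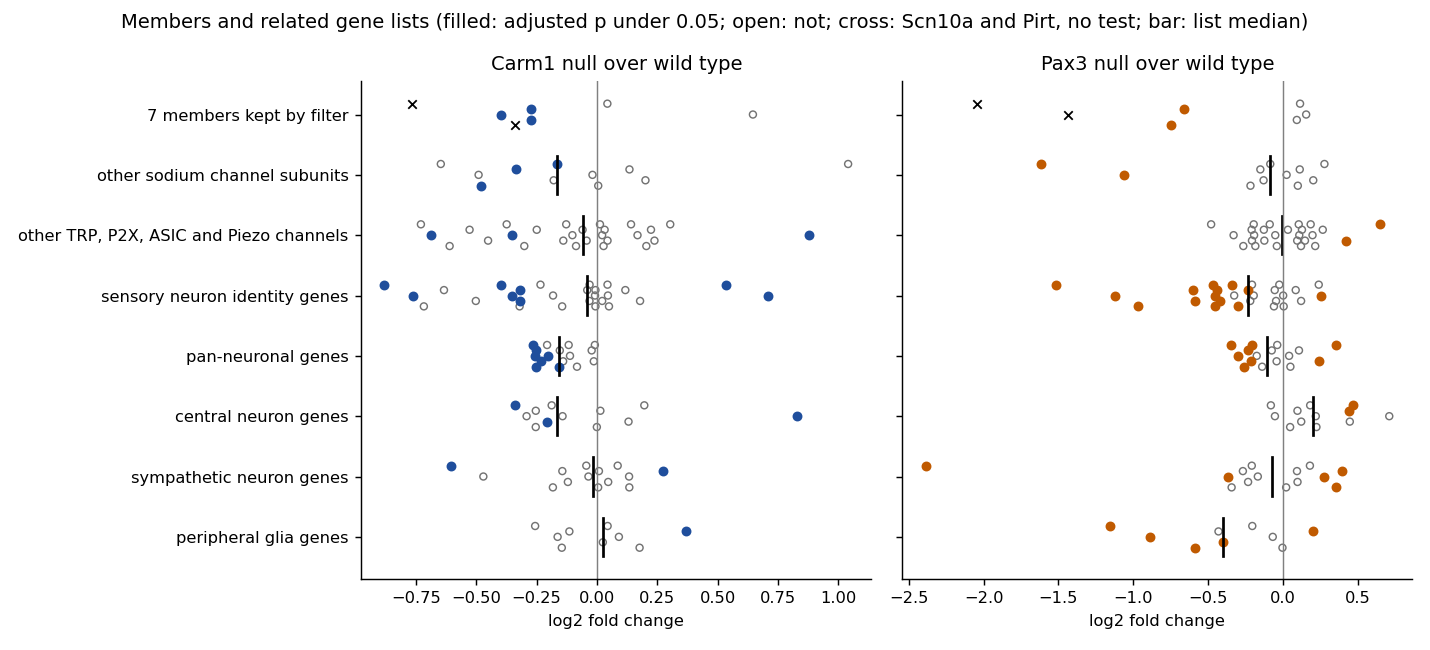
Log2 fold change of null over wild-type embryos for the genes kept by the filter and for each list of related genes, in the *Carm1* line (left) and the *Pax3* line (right), with a scale of its own in each panel. Filled points passed an adjusted *P* of 0.05, open points did not, crosses mark *Scn10a* and *Pirt*, which were not tested, and bars are list medians. The median of the sensory neuron identity genes is -0.04 on the left and -0.23 on the right, and that of the peripheral glia genes is 0.02 and -0.40.

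The pattern of each gene over the 12 libraries was described by the Pearson correlation of log2 CPM after the mean of each line was subtracted. Both null groups enter, so a shared fall in the mutants raises the value, and libraries and line are shared by all genes. *Pirt* correlated with *Scn9a* at 0.914, with *P2rx3* at 0.910 and with *Scn10a* at 0.795, and *Scn9a* with *Scn10a* at 0.902. *Piezo2* had low or negative values, with 0.166 to *Scn9a*, 0.131 to *Pirt*, 0.0971 to *P2rx3* and -0.614 to *Scn11a*. Among the 15765 other genes with at least 0.5 CPM, those most like *Pirt* were *Mylk4* (0.984), *Thsd7b* (0.977), *Mef2c* (0.968) and *Nub1* (0.967). *Robo1* (0.978), an axon guidance receptor, was most like *Scn9a*, *Nup153* (0.975) most like *Scn10a*, *Mapre2* (0.985) most like *P2rx3* and *Dnm1* (0.932) most like *Piezo2*. For *Scn11a* and *Asic3*, which are low in counts, the highest values were 0.912 (*Pbk*) and 0.851 (*4932411E22Rik*).

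The levels per length in null embryos are given for completeness, and their order changed only between neighbours whose libraries overlapped in wild-type or null embryos. In *Carm1* null embryos *P2rx3* (21.4 ± 2.21 TPM) and *Piezo2* (15.4 ± 0.990 TPM) remained highest, and *Pirt* (4.88 ± 0.845 TPM) overlapped *Asic3* (4.70 ± 0.992 TPM). In *Pax3* null embryos *Piezo2* (13.3 ± 1.38 TPM) overlapped *P2rx3* (11.7 ± 1.01 TPM), and *Pirt* (2.31 ± 0.190 TPM) overlapped *Asic3* (2.58 ± 0.577 TPM). *Scn10a* (0.395 ± 0.206 TPM) overlapped there with *Scn11a* (0.748 ± 0.218 TPM; SD, n = 3 each). *Pirt* and *Scn10a* were chosen for their fall, so their places in this order are a description.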

How the data were processed

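Polyadenylated RNA of 12 whole embryos at E12.5 was sequenced as paired reads. The authors aligned reads to mm10 with STAR and counted them on exons with featureCounts, and deposited unscaled counts, as whole numbers for each gene symbol and library. Tool versions, gene annotation, strand setting and the treatment of reads with several matches are not given in the sources used here. Groups and replicate numbers come from the sample labels. The genes and lists described were chosen with earlier results of these data known, and rows of *Scn10a* and *Pirt* carry no *P* value for that reason.

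Counts were tested with edgeR 4.0.16 (R 4.3.3, limma 3.58.1; TMM, filterByExpr, robust quasi-likelihood F-test, Benjamini-Hochberg over all genes tested, threshold 0.05), in each line alone for null against wild type and in all 12 libraries for the difference and the wild-type contrast. The paper's methods name DESeq2 (run here as version 1.42.0), an alternative beside RLE and upper-quartile factors, no filter, a minimum of 10 counts in every library, 1 fit of all 12 libraries, a replicate block, a term for libraries with at least 100 Y-linked counts, offsets for length and GC content (splines with 5 degrees of freedom per library), and leaving out each library. Intervals at 95% use the fitted standard error and the degrees of freedom of the test. The fits were tested on simulated data first. Lengths and coordinates come from GENCODE M21 on GRCm38, which matched 21777 of 23420 symbols as written and 1277 through older symbols. TPM uses the union of a gene's exons. Named from each list are the 3 genes with the largest significant changes per direction, and as most alike the 5 genes (here the first of them for all but *Pirt*) with the highest correlation (prior count 2). Some genes that this rule would name are counted in their list but not reported here. Nothing in the sources says that embryos of a group came from separate litters, so *P* values measure the spread between these embryos. In the edgeR fit that spread is estimated for each gene in part from the other genes.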

Additional observations from a re-analysis of the deposited data

Results flagged for a closer look

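The genes below, named above, were taken up because their *Carm1* null effect and their *Pax3* null effect differed in the interaction test of 1 edgeR fit of all 12 libraries with an adjusted *P* under 0.05. Values are the log2 fold change in the *Carm1* line minus that in the *Pax3* line, and no explanation was weighed for any of them.

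Among the channels, *Scn9a* had a difference of 0.49 and *Piezo2* one of -0.38. Of the related channels, *Trpm4* (-0.46), *Trpm5* (-0.80) and *Asic4* (-0.62) were relatively lower in *Carm1* null embryos. Of the sensory neuron identity genes, *Neurod4* (1.19), *Prdm12* (0.66) and *Neurog1* (0.60) had positive differences and *Neurog2* (-0.42) a negative one. These are the ones named above. Among the 27 genes of that list tested, 9 had a positive difference called and 1 a negative one. Over all 16292 genes tested the shares were 8.65% and 10.5%. The pan-neuronal genes *Nefl* (0.33) and *Elavl4* (0.31) differed in the opposite direction to *Stmn3* (-0.48) and *Syp* (-0.46). The central neuron genes *Slc32a1* (-0.57) and *Gad1* (-0.55) were relatively lower in *Carm1* null embryos. Of the sympathetic genes, *Dbh* (2.26) was relatively lower in *Pax3* null embryos, and *Npy* (-0.77) and *Hand2* (-0.33) had negative differences. The peripheral glia genes *Cdh19* (1.25), *Sox10* (0.95) and *Erbb3* (0.48) were relatively lower in *Pax3* null embryos.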

How the results depend on the processing

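Of 486 alternative values of the fold changes of the channel genes and *Pirt*, 461 counted as the same, 8 lost a call and 1 gained one. A further 13 changed sign, and 3 of *Scn10a* moved by more than the replicate spread. For the 5 genes tested, the same means that direction and side of the threshold were kept. For *Scn10a* and *Pirt*, which had no test, it means the same sign and a move smaller than the replicate spread. Among the 5 genes tested, leaving out 1 library gave 1 to 3 calls in the *Carm1* line (3 with all libraries) and 1 to 2 for the difference of the mutant effects (2 with all). Of the listed genes, 21 were called lower in the *Carm1* line, 13 with DESeq2 and 13 to 23 with 1 library left out (13 without *Carm1* null replicate 2). In the *Pax3* line 11 were called higher, 5 with length and GC offsets and 6 to 12 with 1 library left out (6 without *Pax3* null replicate 1).

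Changes of sign concerned values near 0. With 1 library left out, *Asic3* ranged from -0.080 to 0.20 in the *Carm1* line, from -0.11 to 0.21 in the *Pax3* line and from -0.16 to 0.16 for the difference, *Scn11a* from -0.020 to 0.38 in the *Pax3* line, and *Scn9a* from -0.22 to 0.042 between the wild-type groups. With length and GC offsets *Asic3* had -0.079 in the *Pax3* line and 0.14 for the difference, and with the term for Y-linked counts *Scn11a* had -0.0024 in the *Pax3* line. The cause was not tested.

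Over all genes, 2106 were called in the *Carm1* line, but 1224 without null replicate 1, 1381 without null replicate 2 and 1349 without wild-type replicate 2, and 868 were higher, but 1686 with offsets. In the *Pax3* line 3851 were called, but 2565 without null replicate 1 and 2454 without null replicate 3. Fewer libraries enter those fits.

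The sources do not say whether embryos with the same replicate number share more than the number. Their deviations correlated at -0.05, -0.0016 and -0.05 in the *Carm1* line and 0.17, -0.08 and 0.25 in the *Pax3* line. Null against wild-type embryos of other numbers gave -0.006 to 0.06, -0.01 to 0.02 and 0.008 to 0.04 in the *Carm1* line. In the *Pax3* line they gave -0.14 to -0.07, -0.22 to 0.24 and -0.36 to 0.18. Replicates 1 and 3 of the *Pax3* line thus had the higher value with the same number, and what the number marks was not tested. With the replicate block, 3, 2, 2 and 3 of the 5 genes were called in the *Carm1*, *Pax3*, difference and wild-type comparisons, as without it, and 1787 and 4177 genes in all in the *Carm1* and *Pax3* lines. Depth limits *Scn11a*, *Trpv1* and *Trpm8*.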
